A study of Homo sapiens with 4 samples.

Results

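Aminoacyl-tRNA synthetase genes were described in HCT116, an established cell line from a human colorectal carcinoma, after PCAF was knocked down with a short hairpin RNA (shRNA). The genes were taken from the authors' deposited table of genes up and down, as the lines whose symbol reads 1 letter followed by ARS, with or without a final 1 or 2, or reads EPRS, FARSA or FARSB. Of 852 lines, 8 that met the rule are described: CARS, SARS, AARS, NARS, YARS, MARS, GARS and HARS2, all among the genes listed as up. Each stands on its own probe set, so that 8 of the 759 probe sets named in the table, and of 33297 on the arrays, were followed. EPRS, FARSA and FARSB had no line there.

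The 4 arrays were 2 of cells transfected with shRNA against PCAF (shPCAF, labelled as PCAF knock-down) and 2 of cells with a control shRNA (shControl, labelled as wild-type), all from asynchronously growing cultures of the same line. PCAF, whose current symbol is KAT2B, acetylates lysines of histones and other proteins, and the title of the series ties the comparison to genes targeted by p27. The labels do not say which or how many hairpins were used, how long after transfection RNA was taken, or whether replicates were separate cultures. No line of the table names KAT2B, so its level after knockdown was not analysed here.

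Aminoacyl-tRNA synthetases join each amino acid to its tRNA and so supply the charged tRNAs that ribosomes read. Cytosolic and mitochondrial translation mostly use separate enzymes, and the mitochondrial ones commonly carry a 2 at the end of their symbol. The enzymes fall into class I and class II, which have unrelated catalytic folds. When amino acids run short, uncharged tRNA activates the kinase GCN2, which phosphorylates eIF2 and so favours translation of the transcription factor ATF4. ATF4 binds C/EBP-ATF response elements, whose core reads TGATGNAA, and several cytosolic synthetase genes are known ATF4 targets.

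The sequences below are shown because this core stood in the promoter windows of 5 of the genes followed here. The windows run from 250 bases before to 50 bases after each annotated start (RefSeq, GRCh38.p14), and both strands were read. Of the 8 genes, 7 matched an entry by current symbol, and YARS1 did not. Each line gives 30 bases 5′ to 3′ in the direction of the gene, with the core in capitals. Where the core lies on the opposite strand, its reverse complement is what appears.
CARS1 (chr11:3057407-3057436, minus strand): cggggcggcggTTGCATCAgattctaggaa
AARS1 (chr16:70289675-70289704, minus strand): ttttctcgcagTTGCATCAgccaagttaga
NARS1 (chr18:57621804-57621833, minus strand): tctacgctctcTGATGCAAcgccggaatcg
MARS1 (chr12:57488053-57488082, plus strand): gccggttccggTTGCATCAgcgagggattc
GARS1 (chr7:30594834-30594863, plus strand): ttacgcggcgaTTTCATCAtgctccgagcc

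The cysteine, alanine, asparagine and methionine synthetase genes CARS1, AARS1, NARS1 and MARS1 carried the same 8 letters, TGATGCAA, and GARS1 carried another form of the core. In CARS1 and MARS1 the core spanned the annotated start, from position -2 to 6 and from -4 to 4, where the first transcribed base is 1. In NARS1 it lay just inside the transcript, from 15 to 22. In GARS1, which has 2 annotated starts, it lay from -33 to -26 of the more downstream start, and in AARS1 it was far upstream, from -187 to -180. CARS1 also has 2 annotated starts, and the window of the other held no core. The window of HARS2 had no match, nor did either window of SARS1, the gene for cytosolic seryl-tRNA synthetase. Absence says only that these letters are not in the window.

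For context, the 250 bases before the start are given for AARS1, where the core lies well inside the promoter, and for the more upstream start of SARS1, whose symbol SARS had the second largest difference in signal and whose windows held no core.
AARS1 (chr16:70289507-70289756, minus strand, core in capitals): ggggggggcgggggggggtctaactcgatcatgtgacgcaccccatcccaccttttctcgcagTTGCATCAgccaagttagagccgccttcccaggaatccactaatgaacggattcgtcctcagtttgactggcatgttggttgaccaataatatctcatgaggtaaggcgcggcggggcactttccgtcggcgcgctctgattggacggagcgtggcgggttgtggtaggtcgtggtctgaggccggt
SARS1 (chr1:109213643-109213892, plus strand, no core): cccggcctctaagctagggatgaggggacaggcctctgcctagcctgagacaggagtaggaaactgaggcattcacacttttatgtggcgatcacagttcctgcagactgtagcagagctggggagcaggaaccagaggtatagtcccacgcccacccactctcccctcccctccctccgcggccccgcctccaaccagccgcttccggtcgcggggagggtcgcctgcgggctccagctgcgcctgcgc

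The core was present in 5 of the 7 genes with an entry, against 1217 of all 27305 genes with one (4.46%). These 7 include HARS2, although the probe set listed under that symbol may be of another gene, and leave out YARS1. A gene was counted if any of its windows held the core, and genes differ in their number of windows. The share is a count of letters in windows of equal length and carries no test. The narrower form TGATGCAA was present in 4 of the 7 genes, against 1.08% of all genes. The cyclic AMP response element TGACGTCA and the E-box CACGTG were found in none of the 7, against 2.25% and 8.77% of all genes. Among genes with a single-symbol probe set in the authors' deposited table, the core was present in 28 of 387 listed as up (7.24%), in 23 of 381 of these with the synthetases set aside (6.04%), and in 3 of 176 listed as down (1.70%). Of 10 cytosolic synthetase genes that the table does not name and that have a promoter entry, IARS1 and TARS1 held the core.

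**Figure D1:**
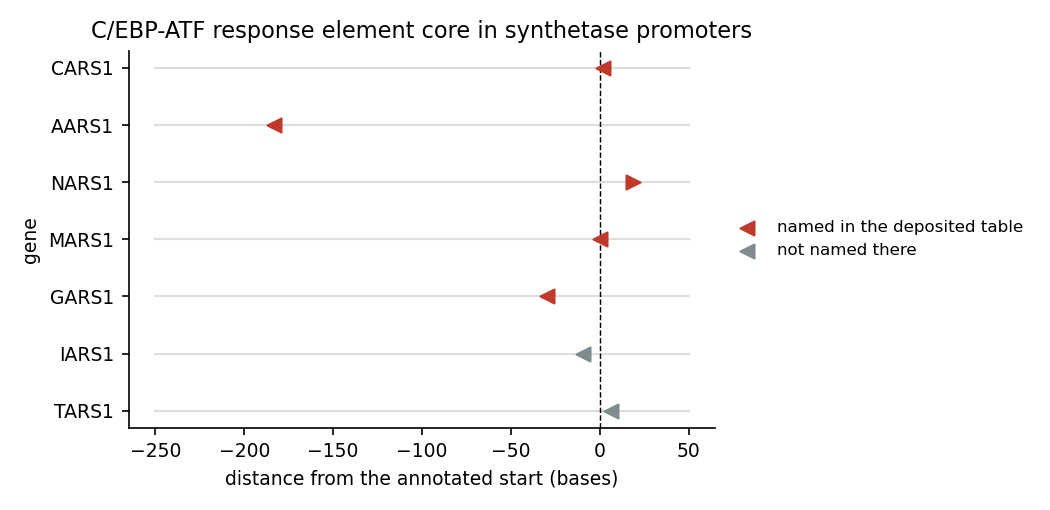
Position of the core TGATGNAA relative to the annotated start in synthetase promoter windows of 300 bases. The x axis is distance in bases, each row is a gene, triangles point right where the core reads with the gene and left where it reads against it, and red marks genes named in the authors' deposited table. In 6 of the 7 genes shown the core lies between -33 and 22, and in AARS1 it lies at -187.

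Signals of 7 probe sets listed under symbols of cytosolic synthetases, 3 of which RefSeq also gives to another gene, were higher in shPCAF than in shControl cells, by 0.73 to 1.67 on the log2 scale, which corresponds to 1.66- to 3.18-fold. The remaining probe set, listed as HARS2, was 1.65-fold higher but cannot be assigned to that gene. The values chose these genes, since the table was selected on the same 4 arrays, and they are therefore given as a description without a test. Signals are log2 probe set values as deposited, errors of a group are standard deviations (SD) over 2 arrays, and errors of a difference are limma's moderated standard errors (SE). In bulk RNA, more transcript per cell and more cells that carry it cannot be told apart.

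CARS, the symbol for cysteinyl-tRNA synthetase now named CARS1 (class I), had the largest difference. Its log2 signals were 10.61 and 10.60 on the shPCAF arrays, against 8.85 and 9.03 on the shControl arrays. The shPCAF arrays were nearly equal and both lay above both shControl arrays by at least 1.57. The difference was 1.67 ± 0.09 (SE), or 3.18-fold, and 69 of 33297 probe sets (0.207%) were at least as far up.

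SARS, a class II enzyme symbol for seryl-tRNA synthetase, read 12.39 and 12.26 in shPCAF cells and 10.86 and 11.02 in shControl cells. The groups were apart by 1.24 at their closest, and the difference was 1.39 ± 0.09 (SE), or 2.61-fold. The older symbol SARS belongs to both SARS1, the cytosolic enzyme, and SARS2, the mitochondrial one, in RefSeq, and the table does not say which was meant.

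AARS, which is alanyl-tRNA synthetase AARS1 (class II), had signals of 12.80 and 12.67 in shPCAF cells, against 11.44 and 11.45 in shControl cells. Here the shControl arrays were the closer pair, and the 2.44-fold difference was 1.29 ± 0.08 (SE) on the log2 scale. NARS, asparaginyl-tRNA synthetase NARS1 (class II), read 9.48 and 9.73 in shPCAF cells and 8.58 and 8.46 in shControl cells. Its groups did not overlap, but its shPCAF arrays were 0.246 apart, the widest gap within a group among the 8 probe sets. Its difference was 1.09 ± 0.11 (SE), or 2.13-fold.

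The NARS probe set also lies in a run of 4201 low identifiers with almost no gaps between them. No description of this run came with the files, and it holds 24 lines of the table. The median residual SD between replicate arrays was 0.160 in that run and 0.0768 outside it, and that of NARS was 0.137. The bearing of the run on the NARS value was not tested. Of the 7 probe sets under symbols of cytosolic synthetases, NARS is the only one from that run.

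The other 3 probe sets under symbols of cytosolic synthetases differed less between groups and varied little within them. YARS, tyrosyl-tRNA synthetase YARS1 (class I), gave 12.01 and 11.99 in shPCAF cells, against 11.18 and 11.11 in shControl cells, a 1.81-fold difference (0.85 ± 0.07 SE on the log2 scale). MARS, the symbol of methionyl-tRNA synthetase MARS1 (class I), gave 12.40 and 12.36 in shPCAF cells and 11.60 and 11.61 in shControl cells. This 1.71-fold difference, 0.77 ± 0.07 (SE), had the smallest residual SD of the 8 probe sets, 0.0184. MARS1 is the only gene followed here whose enzyme is a component of the multisynthetase complex, and MARS is also an older name of SLA2, an adaptor protein gene.

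GARS, glycyl-tRNA synthetase GARS1 (class II), read 12.64 and 12.65 in shPCAF cells, against 11.93 and 11.89 in shControl cells. Both groups were tight, and the 1.66-fold difference (0.73 ± 0.07 SE on the log2 scale) was the smallest of the 7. GARS1 makes cytosolic and mitochondrial forms of the enzyme from 1 gene. GARS is also an older name of GART, an enzyme of purine synthesis.

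**Figure D2:**
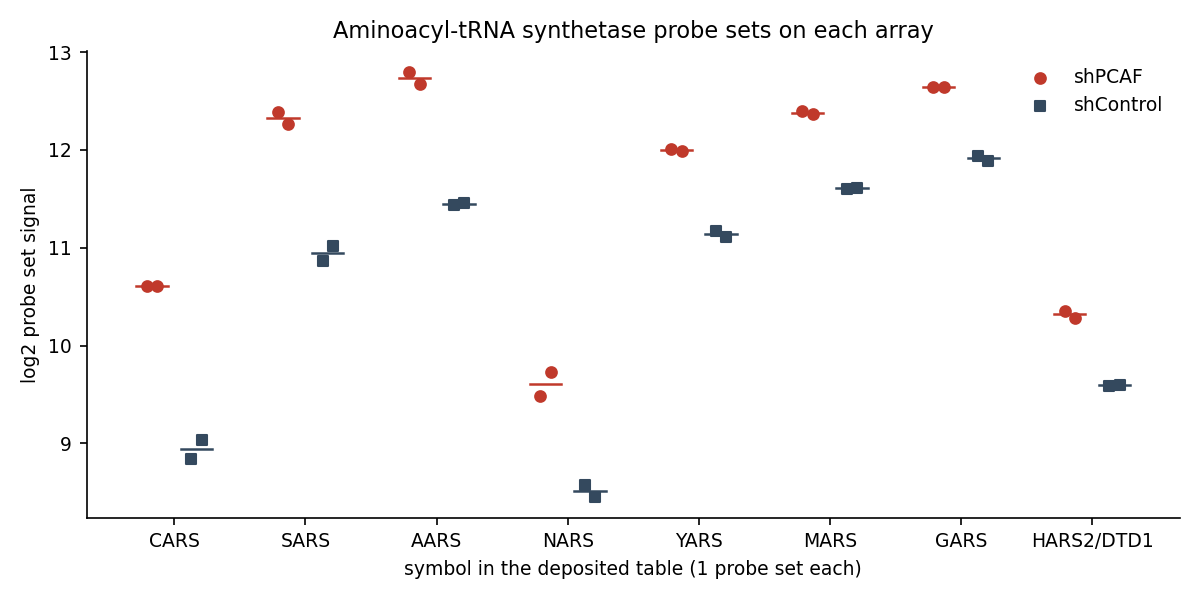
Log2 probe set signal on each array for the 8 symbols followed in the authors' deposited table. Red circles are the 2 shPCAF arrays, dark squares the 2 shControl arrays and bars the group means. Both shPCAF arrays lie above both shControl arrays in all 8 probe sets, and levels of different probe sets are not comparable.

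The probe set listed as HARS2 carries a second symbol in the table, DTD1. HARS2 is the current symbol of mitochondrial histidyl-tRNA synthetase, and DTD1 encodes D-aminoacyl-tRNA deacylase, which removes wrongly attached D-amino acids from tRNA. RefSeq lists HARS2 as an older name of DTD1, so the name could stand for either gene. Signals were 10.36 and 10.28 in shPCAF cells, against 9.59 and 9.60 in shControl cells. The groups were apart by at least 0.679, and the difference was 0.72 ± 0.07 (SE). This value therefore belongs to a probe set of HARS2 or DTD1, and it was left out of the group of 7. The single promoter window of DTD1 held no core.

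Within each probe set, the groups stood apart by more than the arrays of 1 group did. The smallest distance between groups was 0.679, for HARS2 or DTD1, and the largest distance within a group was 0.246, for NARS. The order of the differences of the 7 symbols of cytosolic synthetases was CARS, SARS, AARS, NARS, YARS, MARS and GARS. Of the neighbours in this order, SARS and AARS lay about 1 SE apart, as did YARS and MARS, and MARS and GARS lay within 1 SE of each other. CARS and SARS differed by more than the sum of their SEs, as did AARS and NARS, and NARS and YARS. When each shPCAF array was set against each shControl array, the smallest difference in any of the 7 was 0.709, in GARS. The median over the 7 for a pair of arrays lay between 0.90 and 1.22.

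**Figure D3:**
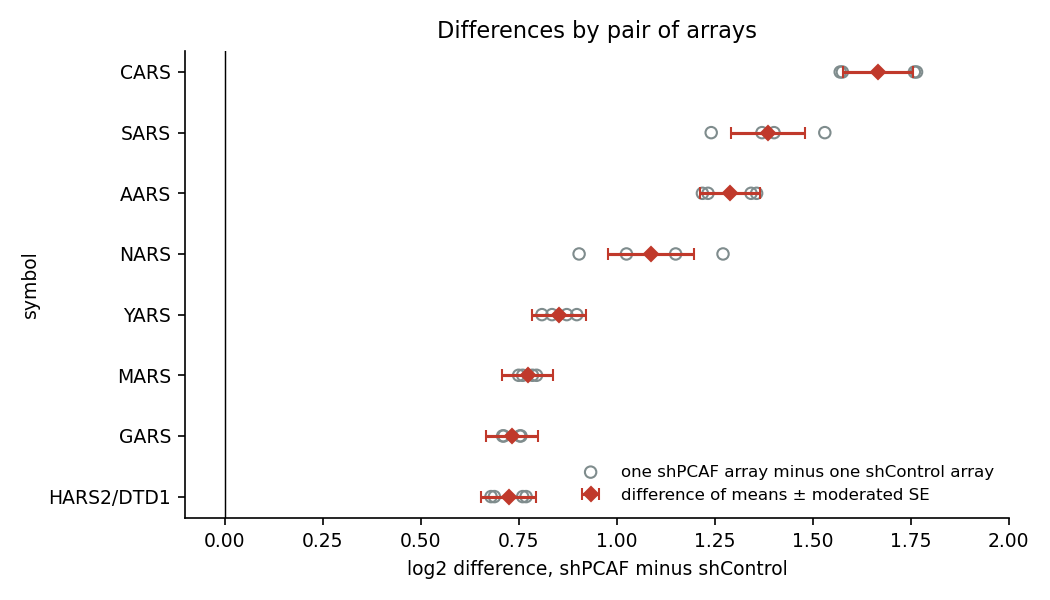
Log2 difference, shPCAF minus shControl, for each of the 8 probe sets followed, HARS2 or DTD1 included. Open circles are the 4 pairs of 1 shPCAF and 1 shControl array, diamonds the difference of group means and bars its moderated SE. The symbols of cytosolic synthetases span 0.73 for GARS to 1.67 for CARS, and every pair of arrays lies above 0.

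All 8 probe sets passed limma's moderated test as higher at an adjusted p below 0.05, as did 7.05% of all probe sets, while 5.85% of all passed as lower and 12.9% in either direction. In all 8 both shPCAF arrays lay above both shControl arrays, as in 23.1% of all probe sets, while in 36% of all both lay below. With either shControl array left out, none of the 33297 probe sets passed. Because the table was selected on this contrast, nothing is read from these counts. The 7 probe sets with a single symbol had a median difference of 1.09, which is the NARS value, and all probe sets had a median of -0.05. For the table itself the medians were 0.93 over the 522 probe sets listed as up and -0.86 over the 237 listed as down. CARS ranked 51st and GARS 470th by size among those 522.

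The smallest difference in the table was 0.70 in absolute size. Among the probe sets followed here, those nearest this bound were HARS2 or DTD1 at 0.72 and GARS at 0.73, and the nearest unnamed probe set below it was also at 0.70. A further 870 unnamed probe sets differed by at least as much, and they may include synthetases. The other 14 genes of a list of 21 cytosolic synthetases thus have no value here. For CARS and GARS the authors' deposited table lists 3.57 and 1.56 as fold changes, which are 2.14 and 2.13 times the log2 difference, and the folds given here were therefore calculated from log2 signals.

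Taken as the cytosolic enzymes, the symbols with higher signal covered both enzyme classes. The class I symbols CARS, YARS and MARS had differences of 0.77 to 1.67, with a median of 0.85. The class II symbols SARS, AARS, NARS and GARS had differences of 0.73 to 1.39, with a median of 1.19. The ranges of the classes overlapped. Of 8 synthetases in the multisynthetase complex, MARS alone was named in the table, and the others have no value here. The table names 2.28% of all probe sets, and nothing particular to the complex is read from this count.

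Genes of related lists that the table names were set beside the synthetases, with no test, since they too were selected on these arrays. Over all features, the table names 2.28% of probe sets and lists 68.8% of those as up, and nothing particular to a list is read from its counts. Of 18 genes of the GCN2 pathway and ATF4-family factors, 6 were named and all were higher, with a median of 1.52 against 1.09 for the 7 symbols of cytosolic synthetases. These included the transcription factor CHOP (DDIT3, 2.09), the pseudokinase TRIB3 (1.94) and the C/EBP factors CEBPG (1.57) and CEBPB (1.48). Neither ATF4 nor the kinase GCN2 is among the 6, so neither has a value here. Of 26 amino acid synthesis genes, 7 were named and all were higher, by 0.97 to 2.14, with 1 of the 7 on a probe set that carries more than 1 symbol. The top of that range is PCK2, the mitochondrial phosphoenolpyruvate carboxykinase (2.14), which makes phosphoenolpyruvate and not an amino acid. Also among them were ASNS (2.04), whose product makes asparagine, the amino acid that NARS1 attaches, and PHGDH (1.44), of the synthesis of serine. ASS1 (1.30), of the synthesis of arginine, was named too.

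Of 25 amino acid transporter genes, 5 were named, 4 higher and 1 lower. The cystine exchanger SLC7A11 was higher by 2.37, the neutral amino acid transporter SLC1A4 by 2.02, the large neutral amino acid transporter SLC43A1 by 1.51 and the cationic amino acid transporter SLC7A1 by 0.87. The glutamine transporter SLC38A5, named here after its value was seen, was lower by 0.86, with 9.41 and 9.46 in shPCAF cells and 10.30 and 10.30 in shControl cells. In these lists the promoter core stood in 2 of 6 regulator genes (CEBPG and JDP2), in 1 of 6 synthesis genes with an entry (ASNS) and in 2 of 4 transporter genes with an entry (SLC1A4 and SLC7A1).

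Of 45 translation factors, 2 were named and both were lower, EIF3K, a subunit of the initiation factor eIF3, at -0.91 and the eIF4G relative EIF4G2 at -0.72. The EIF4G2 probe set lies in the undescribed run of identifiers. Of 37 genes listed under tRNA export, processing and modification, only POLR3K was named, at -0.79. It encodes a subunit of RNA polymerase III, so it stands for transcription and not for those steps. Of 76 cytosolic ribosomal protein genes, RPL30 was higher by 0.90, on a probe set of the undescribed run, and RPL27A was at -0.85. Genes not named in the table were not measured by name, so these counts do not show that a list as a whole moved.

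**Figure D4:**
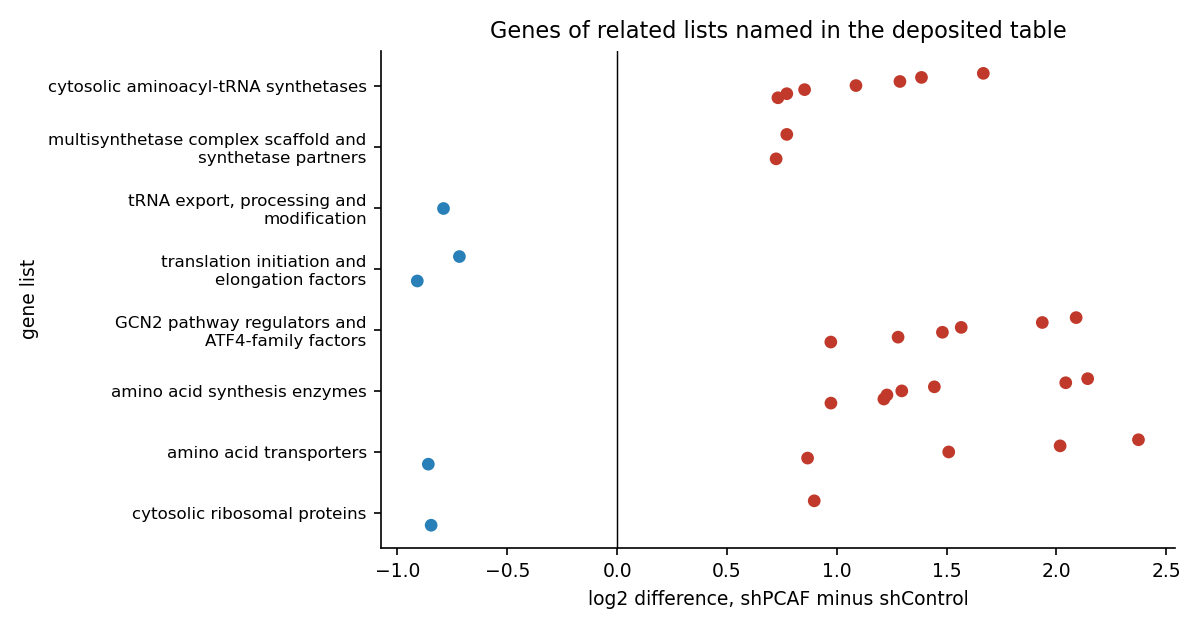
Log2 difference, shPCAF minus shControl, of every gene of 8 lists that the authors' deposited table names. Each point is 1 probe set, red where higher and blue where lower in shPCAF cells, and vertical offsets only separate points. The MARS probe set is drawn both with the cytosolic synthetases and with the multisynthetase complex and its partners. The HARS2 or DTD1 probe set is drawn in the latter list, as DTD1. The 7 symbols of cytosolic synthetases lie at 0.73 to 1.67, and no point lies within 0.70 of 0 because the table holds none there.

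The single-symbol probe sets of the table whose pattern over the 4 arrays was most like the mean of the 8 probe sets followed, HARS2 or DTD1 included, were SLC25A37, which encodes the mitochondrial iron importer mitoferrin-1, the chaperone gene HSPA13, and R3HDM2. Likeness was the root mean square distance after each probe set was centred on its own mean, which was 0.0146 for SLC25A37, 0.0161 for HSPA13 and 0.0238 for R3HDM2. Their differences were 1.08, 1.06 and 1.08, beside a mean of 1.06 over the 8. With 4 arrays in 2 groups, this measure mainly ranks genes by the size of the difference.

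Array medians were 7.02 to 7.03 for shPCAF and 7.08 to 7.10 for shControl. On every array, 6 of the 8 probe sets lay above the upper quartile, and CARS and NARS did not on at least 1 array. Of 10 markers of colon epithelium, CDH1 (E-cadherin) was named, at 1.10, with 11.56 and 11.26 in shPCAF cells and 10.23 and 10.39 in shControl cells. Of 9 fibroblast markers ACTA2 (0.86) and TAGLN (-0.73) were named, of 8 leukocyte markers CD22 (1.54), and of 5 endothelial markers none. Markers without a line have no value by name, so their level was not analysed here, and the part of other cell types in the synthetase values was not tested.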

How the data were processed

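Total RNA of HCT116 cells was hybridised to 4 single-colour Affymetrix arrays, grouped by their titles. The deposited values are log2 signals for 33297 probe sets, a scale read from their range. Affymetrix Expression Console and limma are named per the submitters' processing notes, without role or version, and normalization and genome build were not stated in these sources. The authors' deposited table adds symbols (matched without regard to case), a score headed fold change, which equals 2.14 times the size of the log2 difference to within 0.0107 in all 852 lines, and a p-value per line, which was not used. Of its 852 lines, 688 matched a RefSeq symbol, 122 the synonym of 1 gene, 12 those of several and 30 none.

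Differences were fitted over all probe sets with limma 3.58.1 in R 4.3.3, without filter or covariate, and adjusted by Benjamini-Hochberg. The fit was tested on simulated arrays with equal noise for every probe set and changes larger than those of the members. This checks the code and not the calls. The number of arrays limits precision, and any p-value reflects the spread among these arrays alone, possibly a technical one. Members, lists and tests were chosen with earlier results of these data known. Named are all members, up to 4 genes per list with the largest differences, and the 3 nearest patterns. SLC38A5, and JDP2, IARS1 and TARS1, named for their promoters, stand outside that rule, and 1 line that meets the rule for members is not reported here. Alternatives were other scalings, filters, priors and thresholds, a replicate block and leaving out each array. Promoter windows (RefSeq, GRCh38.p14) were searched on both strands with Python 3.11.15.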

Additional observations from a re-analysis of the deposited data

How the results depend on the processing

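None of the 8 differences changed sign under any alternative run. With 1 array left out in turn, CARS lay between 1.57 and 1.76 and NARS between 0.96 and 1.21. The filter, the block and the prior cannot move a balanced difference of means. Of 16 values under quantile normalization and median centring, 12 moved by less than the replicate SD, and the other 4 moved under median centring, where GARS was 0.79. The median over single-symbol probe sets (1.09) was 1.15 after median centring and 0.96 to 1.21 with an array left out. Under alternatives chosen after seeing the data it was 1.07 without the NARS probe set and 0.97 with the HARS2 or DTD1 probe set. By limma, higher calls (2346) numbered 0 to 1227 and lower calls (1948) 0 to 1142 with an array left out, and members called 0 to 8. Calls were 0 without shControl replicate 1 or replicate 2, where limma gave 6848 and 6849 probe sets an unadjusted p below 0.05. There the spread comes from the shPCAF pair alone, and the lone shControl array is assumed to vary like it. Without shPCAF replicate 1 there were 1227 higher and 706 lower calls, and without replicate 2 there were 1221 and 1142. At an adjusted p below 0.10 they were 3536 and 3557. Median centring gave 3012 higher and 1419 lower calls. With the replicate number as a block, 2454 were higher and 2130 lower, the median stayed 1.09 and all 8 members passed. In the labels the replicates of the groups share only a number, and their deviations correlated at 0.25. Whether they share more was not tested, and the block changed no member's call. Among protein-coding genes alone, 3.60% held the promoter core. Signal over background was not measured.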
